A study of Mus musculus with 2 samples.

Results

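The keratin genes of the mouse genome were examined in 2 teratoma libraries profiled by RNA-seq. A gene was taken as a keratin when its symbol was Krt followed by a number and at most 1 letter and its biotype was protein-coding, which gave 53 of the 45777 genes listed. By where their proteins are known to be used, 5 are simple keratins, 18 stratified keratins, 15 hair keratins, 8 keratins of the hair follicle sheaths, and 7 were left as other keratins. By protein family, 28 are type I and 25 are type II. On the mm10 (GRCm38) genome, 27 of them lie on chromosome 11 from 99232761 to 100269951 and 26 on chromosome 15 from 101348315 to 102032026. The type I genes make up the chromosome 11 cluster, except for Krt18, which lies at the end of the type II cluster of chromosome 15.

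The E14 teratoma library, called the wild-type library here, came from E14, a mouse embryonic stem cell (ESC) line with wild-type Sox2. The E14-Sox2TA/WT teratoma library, called the mutant library here, came from E14 cells in which CRISPR/Cas9 editing had changed threonine 258 of Sox2 to alanine (T258A) on 1 allele. These cells were expanded from a single cell, so the line is 1 clone. The edited clones were normally kept in serum with leukemia inhibitory factor and added inhibitors, which were removed before the experiments. E14 cells were cultured in serum with that factor. Cells of both lines were injected under the skin of BALB/c-nu mice with Matrigel, 3 mice per group, and teratomas, tumors that hold many differentiated tissues, were taken 14 days later. Each group has 1 library of polyA RNA, and the sources used here do not say whether it came from 1 tumor or several. Teratoma is the tissue on the labels, although the extraction protocol beside it mentions only the ESC line. The host is also a mouse, so reads from host skin or stroma cannot be told apart from those of the grafted cells. Markers of several tissues were present in both libraries, with a summed TPM of 3386 and 516 for 11 neuron markers, 327 and 181 for 10 skeletal muscle markers and 411 and 758 for 15 pan-epithelial markers.

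Keratins are the intermediate filament proteins of epithelial cells, and each filament is built from pairs of 1 type I and 1 type II chain, so the families are normally used together. Krt8 and Krt18 form the first keratin pair of the embryo and persist in single-layered epithelia, usually with Krt7, Krt19 or Krt20. Layered epithelia use Krt5 with Krt14 in their basal layer, Krt4 with Krt13 above it in the mouth and esophagus, Krt1 with Krt10 above it in the epidermis, and Krt6a, Krt6b, Krt16 and Krt17 in skin appendages and wounds. Hair keratins, cross-linked by keratin-associated proteins, form the hard shaft of the hair.

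Promoter sequences in RefSeq (GRCm38.p6) were found for 36 of the 53 keratins, each read from 250 bases before to 50 after the start of transcription. The letters TATAAA, a common TATA box, occurred on either strand in 19 of these 36 promoters (52.8%), against 14.2% of all 27025 promoters of that length. A match was counted anywhere in the window, from 206 bases before the start in Krt84 to base 20 after it in Krt42. Among the keratins called higher below, Krt8 alone had a match, and several of them had no promoter entry. A GC box, GGGCGG, occurred in 2 keratin promoters (5.56%) against 35.9% of all. The AP-2 site GCCNNNGGC occurred in 7 (19.4%) against 16.5%, and the AP-1 site TGANTCA in 1 (2.78%) against 7.93%. A match to such letters is not a bound site, and these libraries do not measure binding. The 6 promoters printed here, 250 bases before to 30 after the start, are shown because they belong to the simple keratins Krt8, Krt18, Krt7 and Krt20 and to Krt5 and Krt13, whose levels the comparison turns on. Capitals mark matches to those 4 motifs on either strand. In Krt8 a match on each strand overlaps to form the capitals at the start site. In Krt7, 1 GC box overlaps an AP-2 match, and in Krt5 none of the 4 motifs matched. The match of Krt20 begins 29 bases before the start, that of Krt18 83 bases before it and that of Krt13 196 bases before it. RefSeq gives Krt13 another start, whose window is not printed or counted here.
Krt8, chr15:102004313-102004592, minus strand: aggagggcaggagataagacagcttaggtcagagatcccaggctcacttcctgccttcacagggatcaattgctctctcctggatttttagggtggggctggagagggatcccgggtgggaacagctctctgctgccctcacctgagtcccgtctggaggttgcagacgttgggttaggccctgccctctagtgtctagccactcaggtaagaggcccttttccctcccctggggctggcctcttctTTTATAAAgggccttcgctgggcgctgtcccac
Krt18, chr15:102027966-102028245, plus strand: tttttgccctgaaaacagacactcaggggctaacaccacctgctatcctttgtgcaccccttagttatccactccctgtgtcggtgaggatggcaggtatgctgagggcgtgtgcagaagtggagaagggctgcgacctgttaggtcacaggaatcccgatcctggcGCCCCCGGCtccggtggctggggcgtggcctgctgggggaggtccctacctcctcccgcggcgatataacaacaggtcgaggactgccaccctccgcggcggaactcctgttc
Krt7, chr15:101412153-101412432, plus strand: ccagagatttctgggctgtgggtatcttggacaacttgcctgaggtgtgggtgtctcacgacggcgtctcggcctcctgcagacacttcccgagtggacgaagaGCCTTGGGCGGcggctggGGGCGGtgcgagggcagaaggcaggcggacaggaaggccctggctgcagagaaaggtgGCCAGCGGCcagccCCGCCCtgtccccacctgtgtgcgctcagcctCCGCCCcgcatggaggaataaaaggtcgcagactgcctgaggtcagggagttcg
Krt20, chr11:99438124-99438403, minus strand: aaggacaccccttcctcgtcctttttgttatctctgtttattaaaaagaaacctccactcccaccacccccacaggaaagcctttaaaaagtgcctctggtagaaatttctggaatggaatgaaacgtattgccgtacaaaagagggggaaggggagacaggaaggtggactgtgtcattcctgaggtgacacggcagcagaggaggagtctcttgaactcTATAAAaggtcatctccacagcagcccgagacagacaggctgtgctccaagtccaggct
Krt5, chr15:101712876-101713155, minus strand: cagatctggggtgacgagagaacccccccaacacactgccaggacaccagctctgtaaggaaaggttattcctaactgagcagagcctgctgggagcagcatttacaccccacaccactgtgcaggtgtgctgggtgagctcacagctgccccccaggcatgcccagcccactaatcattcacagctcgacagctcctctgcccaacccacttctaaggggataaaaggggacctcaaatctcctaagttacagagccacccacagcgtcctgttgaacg
Krt13, chr11:100121537-100121816, minus strand: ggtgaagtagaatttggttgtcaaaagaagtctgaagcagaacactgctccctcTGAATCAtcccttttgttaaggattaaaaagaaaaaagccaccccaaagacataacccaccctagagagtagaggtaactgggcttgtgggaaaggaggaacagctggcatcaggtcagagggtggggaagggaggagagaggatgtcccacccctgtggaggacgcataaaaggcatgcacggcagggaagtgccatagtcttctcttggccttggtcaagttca

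Each gene has a deposited read count, an FPKM and a TPM, a level per transcript length that is set to the same total in each library. The wild-type library held 50529171 reads on genes and the mutant library 49030281. Since there is 1 library per group, no difference has a replicate check within these libraries, and no p-value is given. The study also measured marker genes by qPCR in frozen teratomas. It reports mesendodermal genes, among which it counts Krt8, as higher with the mutant line and ectodermal genes as lower. Those values are not used here. The interval in parentheses after a ratio is the 95% Clopper-Pearson interval from the reads behind it, which covers counting error only and compares libraries, not genotypes. In bulk tissue, fewer cells of a type and less RNA per cell cannot be told apart. Among 18558 genes that reached a TPM of 1 in either library, the median log2 ratio, taken on TPM + 1, was -0.06. The same median was 0.11 on FPKM, and the median of the 22 keratins past that TPM lay 1.55 above it on TPM and 1.21 above it on FPKM. Within each library TPM is FPKM times a fixed factor. The smaller gap on FPKM therefore reflects the 1 added to smaller values, not a smaller difference of the keratins.

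Keratins as a group were more abundant in the mutant library. Their summed TPM was 641 in the wild-type library and 2036 in the mutant library, 3.17-fold higher, and they held 0.0641% and 0.204% of all TPM. By the rule of the study's methods, a TPM that reaches 10 in either library and a fold above 2, 11 keratins were called higher, 0 lower, and Krt15 was within 2-fold. The other 41 were below a TPM of 10 in both libraries. Over all 11578 genes that reached this TPM, 10.8% were called higher and 18.7% lower, that is 1253 and 2167 genes. The study reports fewer genes in each direction for its teratomas, so its counts were not reproduced here. The reason was not tested. A keratin can reach that TPM through the mutant library alone, as Krt14 and Krt6b did, and such genes had to differ. Of the 10 keratins with a TPM of at least 10 in the wild-type library itself, 9 were called higher, against 4.58% of all 10466 such genes. Scaled to the library total, 43 of the 53 keratins had more reads in the mutant library, 5 had fewer and 5 had 0 reads in both. Over all 45777 genes, 17749 had more, 11399 had fewer and 16629 had 0 reads in both. The counting interval of that ratio of reads lay wholly above 1 for 33 keratins and wholly below 1 for 2, Krt33b and Krt73. Over all genes it lay wholly above 1 for 12103 and wholly below 1 for 8029.

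**Figure D1:**
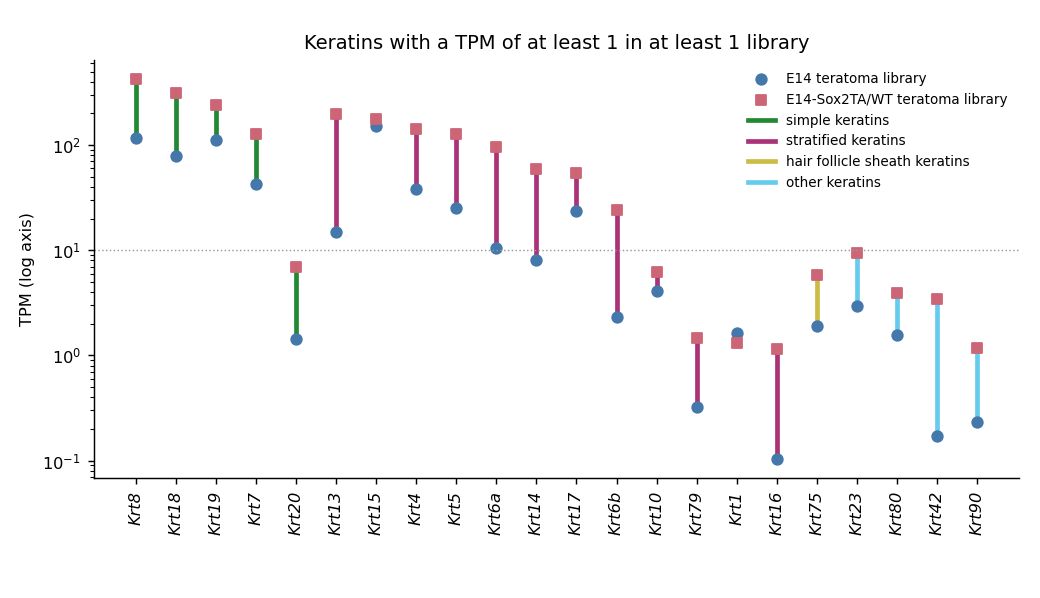
TPM (log axis) of the 22 keratins that reached a TPM of 1 in either library, 1 point per library, grouped by the color of the connecting line into simple, stratified, hair follicle sheath and other keratins, with a dotted line at a TPM of 10. The square of the mutant library lies above the circle of the wild-type library for every keratin shown except Krt1, and the points of Krt15 nearly touch.

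The simple keratins were all higher in the mutant library. Krt8 (NCBI gene 16691, chr15:101996711-102004342), the type II chain of the first embryonic pair, had 5109 reads and a TPM of 118 in the wild-type library and 20667 reads and a TPM of 426 in the mutant library, a ratio of 3.62 (3.51 to 3.74). Of the 50-nt stretches of Krt8 transcripts, 26.9% also occur in the pseudogene Krt8-ps, so a part of its reads could have been assigned there. Krt18 (NCBI gene 16668, chr15:102028216-102032026), its type I partner, had 2656 and 11841 reads and a TPM of 78.8 and 315, a ratio of 3.99 (3.83 to 4.17). The pair thus differed by similar folds, and the level of Krt18 over that of Krt8 was 0.670 in the wild-type library and 0.739 in the mutant library. These genes lie next to each other on opposite strands, and their starts of transcription are 23.9 kb apart.

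Krt19, a type I keratin of ducts and simple epithelia that lacks most of the tail domain, had a TPM of 112 in the wild-type library and 241 in the mutant library, a ratio of 2.15 (2.06 to 2.23). Among the called keratins this was the smallest ratio. Krt7, a type II keratin of ducts and simple epithelia, had a TPM of 42.2 and 128, a ratio of 3.04 (2.88 to 3.22). Krt20, found in intestinal epithelium and Merkel cells, had 68 and 364 reads and a TPM of 1.44 and 6.94, a ratio of 4.81 (3.70 to 6.33). It stayed below a TPM of 10 in both libraries and was not called, and its interval overlaps that of Krt18. The median log2 ratio of the 5 simple keratins was 1.70, and the summed TPM of the class was 352 in the wild-type library and 1117 in the mutant library, 3.17-fold higher.

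Stratified keratins had nearly the same summed ratio but a far wider spread, and the likeness of the sums rests on Krt15. Their summed TPM was 280 in the wild-type library and 891 in the mutant library, 3.18-fold higher, and they held 43.6% and 43.7% of all keratin TPM. Simple keratins held 55.0% and 54.9%. Without Krt15, the most abundant keratin of the wild-type library, the stratified sum was 129 and 712, 5.52-fold higher. Of the keratin TPM that was then left, stratified members held 26.3% and 38.4% and simple members 71.8% and 60.1%. Within the stratified class, log2 ratios of the 12 members with a TPM of at least 1 ran from -0.18 to 3.64, with a median of 1.52. Krt16 and Krt79 reached that TPM in the mutant library alone, so they had to be higher there. Log2 ratios of the simple keratins ran from 1.09 to 1.98.

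Krt13 (NCBI gene 16663, chr11:100117327-100121566), the type I keratin of the upper layers of oral and esophageal epithelium, had 593 reads and a TPM of 14.9 in the wild-type library and 8759 reads and a TPM of 197 in the mutant library. Its ratio of 13.2 (12.2 to 14.4) was the largest among the called keratins. Krt4 (NCBI gene 16682, chr15:101918535-101924735), the type II chain that pairs with it, had a TPM of 37.9 and 142, a ratio of 3.75 (3.56 to 3.94). The level of Krt13 over that of Krt4 was therefore 0.392 in the wild-type library and 1.39 in the mutant library, and the pair changed order.

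Basal-layer keratins did not differ alike. Krt5 (NCBI gene 110308, chr15:101707069-101712905) had 1334 reads and a TPM of 25.1 in the wild-type library and 7534 reads and a TPM of 127 in the mutant library, a ratio of 5.06 (4.77 to 5.37). Krt14, its type I partner, had a TPM of 8.09 and 58.9, a ratio of 7.28 (6.47 to 8.22), and its level over that of Krt5 was 0.322 and 0.463. Stretches shared with other transcripts were 12.2% for Krt5 and 14.4% for Krt14. Krt15 (NCBI gene 16665, chr11:100131759-100135949), a type I keratin of basal cells, differed far less than both. It had 6239 and 8228 reads and a TPM of 151 and 178, a ratio of 1.18 (1.14 to 1.22). Krt15 had the highest TPM of all keratins in the wild-type library and the fifth highest in the mutant library. Its share of keratin TPM was 23.5% and 8.75%, while that of Krt13 was 2.32% and 9.69%.

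Keratins of skin appendages and wounds were higher as well. Krt6a had 569 and 5856 reads and a TPM of 10.5 and 96.5, a ratio of 9.22 (8.46 to 10.1). Krt6b had 125 and 1454 reads and a TPM of 2.30 and 24.1, a ratio of 10.5 (8.73 to 12.7). The proteins of these neighbors share 96.9% of residues, and 43.6% of the 50-nt stretches of Krt6a transcripts also occur in Krt6b transcripts, so the division of reads between them is uncertain. Krt17, a type I keratin of the same settings, had a TPM of 23.4 and 53.8, a ratio of 2.30 (2.12 to 2.49). Krt16, which can pair with Krt6a, had only 4 and 49 reads, a ratio of 11.2 (4.11 to 42.7), and its level over that of Krt6a was 0.00981 and 0.0119. Of the 50-nt stretches of Krt16, 37.6% also occur in other transcripts. In both libraries Krt16 was thus far below Krt6a.

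Epidermal suprabasal keratins had low levels, and the ratios of Krt10 and Krt1 lay on either side of that of Krt15. Krt10 had 222 and 380 reads and a TPM of 4.13 and 6.23, a ratio of 1.51 (1.28 to 1.79). Krt1, its type II partner, had 97 and 87 reads and a TPM of 1.63 and 1.32, a ratio of 0.809 (0.599 to 1.09), and counting error alone covers that difference. Krt1 was the 1 keratin with a TPM of at least 1 that was not higher in the mutant library. Krt2 of the upper epidermis had 0 reads in both libraries, which allows up to 3 reads in each, and Krt77, also epidermal, had 20 and 28. Against the large values of Krt4 and Krt13, the keratins that mark the upper epidermis were thus low in both libraries.

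The remaining stratified keratins had at most 84 reads in a library. Krt12, the type I keratin of the cornea, had 0 reads in the wild-type library and 50 in the mutant library, at least 17.2-fold higher with 3 reads taken as the most a count of 0 allows. Of the 50-nt stretches of Krt12 transcripts, 42% also occur in transcripts of A830036E02Rik, so its reads are uncertain. Krt79, known from the opening of the hair follicle, had 17 and 83 reads, and Krt78 had 16 and 84. Krt9 of palm and sole skin and Krt76 of the palate each had 0 and 11 reads.

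**Figure D2:**
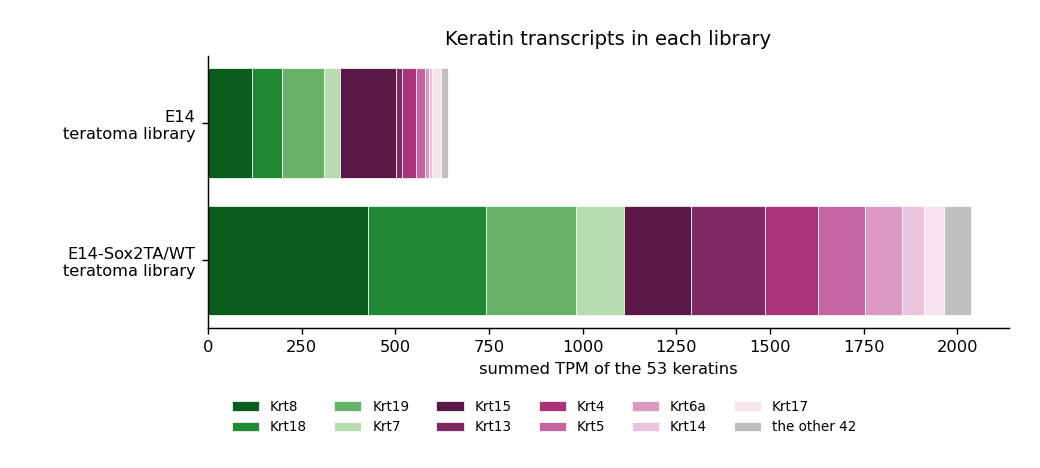
Summed TPM of the 53 keratins in each library, stacked by gene, with simple keratins in greens, stratified keratins in purples and the other 42 in gray. The bar reaches 641 for the wild-type library and 2036 for the mutant library, the Krt15 segment is nearly equal in both, and the Krt13 segment is far wider in the mutant bar.

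Hair keratins were near the floor of detection in both libraries. All 15 together had 61 reads in the wild-type library and 120 in the mutant library, and their summed TPM was 1.37 and 2.22. None reached a TPM of 1, so no median is given for the class. Krt36 had the most reads, 24 and 36, a ratio of 1.34 (0.777 to 2.35). Krt83 had 3 and 23 reads, with a counting interval of the ratio from 3.03 to 52.2, and Krt87 had 0 and 21, at least 7.21-fold higher. Krt31 had 20 and 10 reads, a ratio of 0.411 (0.172 to 0.919), and Krt33b had 12 and 3, a ratio of 0.187 (0.0338 to 0.693). The hair keratins thus differed in both directions and none had over 36 reads in a library. Krt35 had 2 and 7 reads, and Krt32, Krt33a, Krt34, Krt39, Krt40 and Krt81 had 0 in the wild-type library and 3 or 4 in the mutant library. Krt82, Krt84 and Krt86 had 0 reads in both libraries. Protein identity between pairs among Krt81, Krt83 and Krt86 was at least 93.2%, and between pairs among Krt31, Krt33a and Krt33b 92.1% to 94.3%, while Krt33a and Krt34 shared 90.3%. Reads of these genes could have been assigned to the wrong copy.

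The proteins that cross-link hair keratins were near 0 too. Of 54 genes for keratin-associated proteins in the table, 46 had 0 reads in both libraries, and together they had 7 reads in the wild-type library and 20 in the mutant library. Hoxc13, a transcription factor needed for hair keratins, had 0 and 51 reads, and Foxq1, a factor of the hair shaft, had a TPM of 5.71 and 18.5. Gata3, a factor of the inner root sheath, went the other way, with a TPM of 8.91 and 3.08, a ratio of 0.345 (0.299 to 0.398). Lef1, which acts in Wnt signaling in the follicle, had 11.8 and 9.95. Of the 7 hair follicle transcription factors listed, 1 was called higher, 0 lower and 5 were below a TPM of 10. The 1 called, Foxq1, reached that TPM in the mutant library alone, so it had to be higher there. For comparison, 10.8% of all genes that reached this TPM were called higher and 18.7% lower.

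Among the 8 keratins of the hair follicle sheaths, only Krt75, of the companion layer, reached a TPM of 1. It had 152 and 509 reads and a TPM of 1.92 and 5.79, a ratio of 3.01 (2.51 to 3.64). Krt25 had 0 and 26 reads, at least 8.93-fold higher. Krt73 went the other way, with 14 and 2 reads and a ratio of 0.136 (0.0150 to 0.591), and Krt28 had 12 and 8. Krt26, Krt27 and Krt71 had 0 reads in the wild-type library and 8, 4 and 7 in the mutant library, and Krt72 had 0 in both.

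The 7 other keratins all had more reads in the mutant library. Krt23, a type I keratin, had a TPM of 2.96 and 9.40, a ratio of 3.18 (2.57 to 3.96), just under the TPM of 10 that a call requires. Krt42, which lies 1.85 kb from Krt17, had 7 and 149 reads and a TPM of 0.170 and 3.40, a ratio of 20.1 (9.50 to 50.8). Krt80 had a TPM of 1.56 and 3.92, a ratio of 2.5 (2.02 to 3.12), and Krt90 had 15 and 80 reads. Krt222 had 32 and 62 reads, and Krt24 and Krt88 had 0 in the wild-type library and 9 and 6 in the mutant library. The median log2 ratio of the 4 members with a TPM of at least 1 was 1.17. Krt42 and Krt90 reached that TPM in the mutant library alone, so they had to be higher there.

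The type I and type II families were compared next, since their chains pair. Summed TPM of type I keratins was 399 in the wild-type library and 1075 in the mutant library, 2.69-fold higher. For type II it was 242 and 961, 3.97-fold higher. Type I over type II was therefore 1.65 in the wild-type library and 1.12 in the mutant library. Without Krt8 and Krt18, the balance was 2.57 and 1.42. It was 1.21 and 1.01 for simple keratins and 2.57 and 1.26 for stratified keratins. On raw reads, which are not scaled by length, type I over type II was 1.34 and 0.877, so the family that led in the mutant library depended on the unit.

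Krt15 carried much of this shift. Without it, type I keratins had a summed TPM of 248 in the wild-type library and 897 in the mutant library, 3.61-fold higher, close to the 3.97-fold of type II. Type I over type II was then 1.03 and 0.934 over all keratins, and for stratified keratins it was 0.647 and 0.808, so among these the direction of the shift turned around. The sums without Krt15 were chosen after its value had been seen. In the 5 known pairs, the type I chain had the larger ratio each time, though for Krt16 and Krt6a the counting intervals overlap. Krt10 over Krt1 was 2.53 in the wild-type library and 4.72 in the mutant library.

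**Figure D3:**
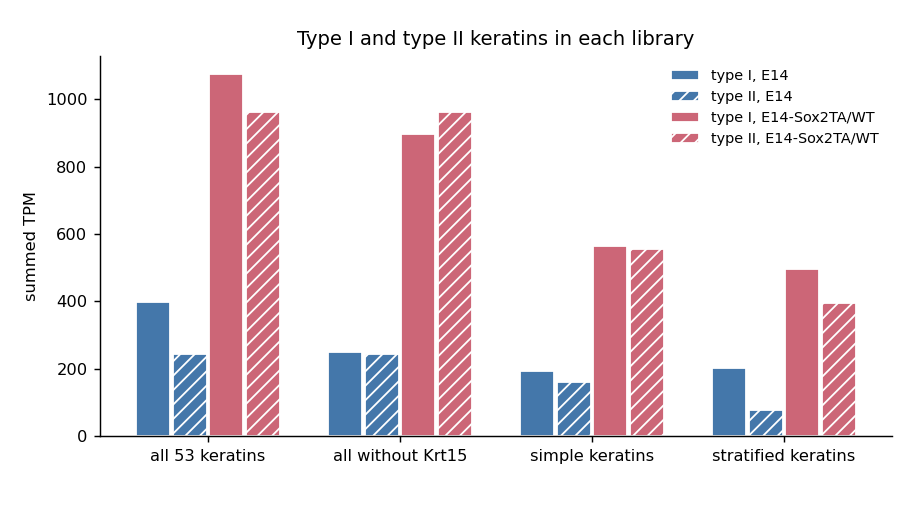
Summed TPM of type I keratins (plain bars) and type II keratins (hatched bars) in the wild-type library (blue) and the mutant library (red), for all keratins, all without Krt15, simple and stratified keratins. Over all keratins, type I over type II is 1.65 in the wild-type library and 1.12 in the mutant library, and without Krt15 the bars of each library are nearly level, at 1.03 and 0.934.

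Per gene, the families differed less. The median log2 ratio was 1.40 for the 11 type I keratins with a TPM of at least 1 and 1.58 for the 11 type II keratins. The medians of the members' lower and upper counting limits were 1.15 and 1.64 for type I and 1.5 and 1.66 for type II. These limits cover the counting error of single genes, so their overlap does not say whether the families differ. Members ran from 0.24 to 3.64 for type I and from -0.18 to 3.09 for type II. Among stratified keratins the medians were 1.06 for type I and 2.09 for type II, each over 6 genes. Genes of 1 cluster are neighbors in 1 library and are not replicates.

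Chromosome 15 as a whole was higher in the mutant library, which touches the comparison of families. The 730 other genes of chromosome 15 with a TPM of at least 1 had a median log2 ratio of 0.34, that is 0.40 above the median of all genes, while the 1417 other genes of chromosome 11 had a median of -0.10. Within 2 Mb of the clusters, the medians of genes that are not keratins were 0.57 on chromosome 15 (98 genes) and -0.12 on chromosome 11 (129 genes). Relative to the median of their own chromosome, type I keratins had a median log2 ratio of 1.49 and type II keratins 1.24, so the order of the families turned around. Family and chromosome coincide for every keratin but Krt18, so they cannot be told apart here. Of the 22 keratins with a TPM of at least 1, 21 were above the median of their chromosome, and Krt1 was below it. Among these, Krt16, Krt42, Krt79 and Krt90 reached that TPM in the mutant library alone, so they had to be higher there. The medians relative to the chromosome were 1.51 for simple and 1.40 for stratified keratins.

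Neighbors within a cluster had unlike ratios in some stretches and like ratios in others. On chromosome 11, Krt36, Krt13, Krt15 and Krt19 follow each other with gaps of 7.84, 10.2 and 4.86 kb. Their ratios were 1.34, 13.2, 1.18 and 2.15 in that order. On chromosome 15, Krt6b, Krt6a and Krt5 follow each other with gaps of 9.63 and 12.8 kb, and their ratios were 10.5, 9.22 and 5.06. Next to Krt5, 21.0 kb away, Krt71 had 0 and 7 reads. The sole genes that are not keratins and reached a TPM of 1 inside the chromosome 15 cluster were Gm5414 and Gm5478, which share stretches with Krt6b transcripts.

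**Figure D4:**
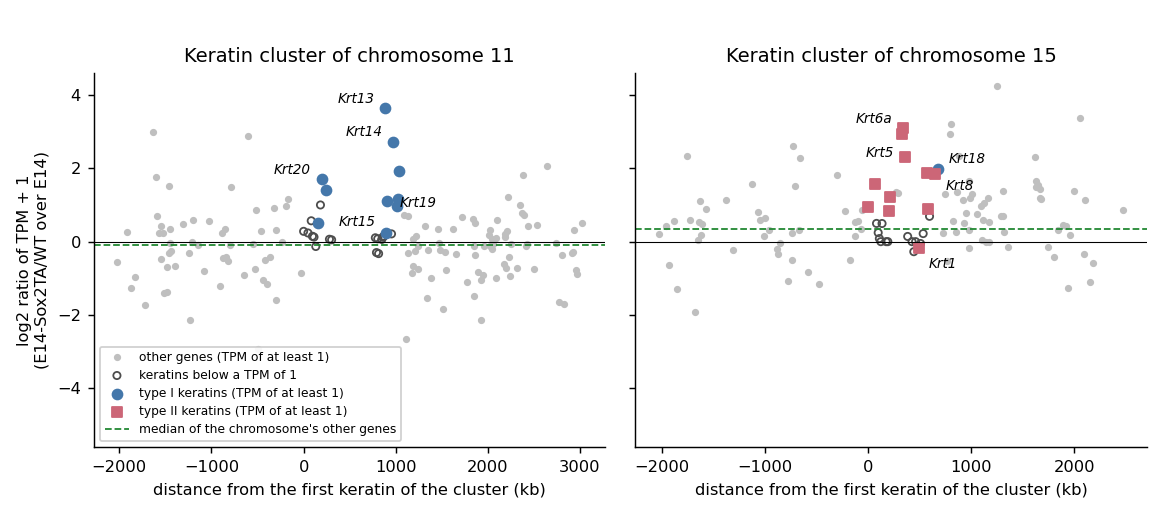
Log2 ratio of TPM + 1 (E14-Sox2TA/WT over E14) against distance in kb from the first keratin of the cluster, for chromosome 11 (left) and chromosome 15 (right), with type I keratins as blue circles, type II keratins as red squares, keratins below a TPM of 1 as open circles and other genes in gray. The dashed line, the median of the chromosome's other genes, lies at -0.10 on chromosome 11 and 0.34 on chromosome 15, and Krt13, next to Krt15, stands highest on chromosome 11.

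Genes that work with keratins in epithelial cells were read from lists assembled by hand. As for the keratins, a list gene that reached a TPM of 10 through the mutant library alone had to be higher there. Over all genes that reached this TPM, 10.8% were called higher and 18.7% lower. Of 15 genes for desmosomes, the junctions that keratin filaments attach to, and for cornified-layer plakins, 4 were called higher, 0 lower and 9 were below a TPM of 10, with a median log2 ratio of 0.97. Pkp2, a desmosomal plaque protein, had a TPM of 5.96 and 19.5, and Perp, a desmosomal membrane protein, 32.6 and 68.1. Dsg3, a desmosomal cadherin of layered epithelia, had 0.464 and 3.63. Jup, or plakoglobin, had 21.9 and 36.4 and was within 2-fold. Hemidesmosomes, which tie keratins of basal cells to the basement membrane, did not differ in the same way. Of their 9 genes, 0 were called higher and 1 lower, with a median of 0.01. That gene was Dst, a linker with isoforms in several tissues, at 34.1 and 14.7, while Itgb4, the integrin chain particular to hemidesmosomes, had 4.15 and 5.37. Itga6, the chain that pairs with it, had 33.0 and 38.7, and Cd151, a membrane protein that binds such integrins, had 94.0 and 89.1.

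The list of epithelial transcription factors, which also holds the splicing regulators Esrp1 and Esrp2, included 3 called higher, 0 lower and 8 below a TPM of 10 among 15. Tfap2c, which encodes an AP-2 factor, had a TPM of 2.26 and 19.7, Klf4 6.71 and 20.8, and Elf3 17.4 and 46.7. Klf5 had 31.2 and 20.0, and Esrp1 15.5 and 27.1, both within 2-fold. Trp63 had 738 and 791 reads and a TPM of 6.96 and 6.43, a ratio of 0.924 (0.834 to 1.02). For the 17 other intermediate filament genes listed, 1 was called higher and 2 lower, with a median log2 ratio of -0.31. Vim, which encodes vimentin of mesenchymal and neural precursor cells, had 1530 and 914, and Ina, which encodes a neuronal filament protein, had 205 and 32.8. Prph, of peripheral neurons, had 5.67 and 23.0, and Lmnb1, a nuclear lamin, 142 and 149. Of the 11 other intermediate filament genes that reached a TPM of 10, 8 were within 2-fold. Over all genes that reached it, 10.8% were called higher and 18.7% lower, so the list lay near these shares. Of the 12 keratins that reached it, 11 were called higher.

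Markers of epithelial cell types moved with the keratins, and their part in the keratin differences was not tested. The shares to set beside these lists and those that follow are 10.8% called higher and 18.7% lower over all genes. All 15 pan-epithelial markers had more reads in the mutant library, 5 were called higher, 0 lower and 8 within 2-fold, the median log2 ratio was 0.91, and none was at 0 reads. Their summed TPM was 411 and 758, 1.84-fold higher, against 3.17-fold for the keratins. Cdh1, or E-cadherin, had 48.9 and 90.4, and Cldn6, a tight junction protein of embryonic epithelia, had 64.9 and 152. The protease inhibitors Spint2 and Spint1 had 71.0 and 140 and 16.5 and 39.6, and Ap1m2, which sorts epithelial membrane proteins, had 11.7 and 29.1. Rab25 had slightly more reads but a TPM of 22.2 and 21.8.

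Squamous epithelium markers included 8 called higher and 0 lower of 15, with a median of 2.16 and a summed TPM of 39.4 and 320. Of the 8, only 1 had a TPM of 10 in the wild-type library, and the rest passed that minimum through the mutant library alone. Sbsn, called higher with a TPM of 4.79 and 21.0, had 972 and 932 reads, so its call does not rest on more reads. Scaled to the library total, 13 of the 15 had more reads in the mutant library and 2 had fewer. Krtdap, a protein of differentiating keratinocytes, had a TPM of 2.32 and 67.8, and Sprr3, a cornified envelope precursor of the esophagus, had 0.242 and 29.1. Sprr1a, of the same family, had 1.78 and 45.8, Cnfn, or cornifelin, 0.230 and 26.8, and Sfn, an epithelial 14-3-3 protein, 15.1 and 47.2. Flg, Ivl and Sprr1b, which mark late keratinocyte differentiation, had 0 reads in the wild-type library and 30, 53 and 21 in the mutant library. Lor, or loricrin, another late marker, went the other way with more reads than these, 225 and 63, and a TPM of 5.23 and 1.31, a ratio of 0.251 (0.187 to 0.333).

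Most markers of simple epithelia had more reads in the mutant library too. Intestinal markers included 3 called higher and 0 lower of 13, with a summed TPM of 21.2 and 312, of which Reg3g, an antimicrobial lectin, held 4.25 and 198. Of the 13, 0 had a TPM of 10 in the wild-type library and 9 were below it in both. The 3 calls thus passed that minimum through the mutant library alone. Agr2 had a TPM of 7.24 and 57.9, Lgals4 1.33 and 17.6 and Gpa33 0.240 and 9.77. Cdx1, Cdx2, Fabp2 and Phgr1 had 0 reads in the wild-type library. Other intestinal markers differed little. Cdh17 had 66 and 60 reads, a ratio of 0.815 (0.565 to 1.17), and Muc2 had 126 and 174, a ratio of 1.24 (0.981 to 1.57). Tff3 had a TPM of 5.47 and 10.5 and was within 2-fold. Visceral endoderm and liver markers included 9 called higher of 11, with a summed TPM of 27.1 and 461. Of these 9, only 1 had a TPM of 10 in the wild-type library. Afp, or alpha-fetoprotein, had 0.614 and 151, the apolipoprotein gene Apoa1 2.45 and 61.1 and Rbp4 3.57 and 57.6, and Apoa2 and Apoa4 had 0 reads in the wild-type library. Trophoblast markers included 2 called higher of 10, with a summed TPM of 20.2 and 68.9. Plet1 had 12.1 and 33.5 and Tfeb 3.9 and 13.8, and Gcm1, Hand1, Prl3d1, Prl2c2 and Tpbpa had 0 reads in the wild-type library. Krt8 and Krt18 are used in all of these tissues, and these libraries do not say which cells held the transcripts. Pluripotency markers, given under other observations, were higher in the mutant library too, and their part in the keratin levels was not tested.

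**Figure D5:**
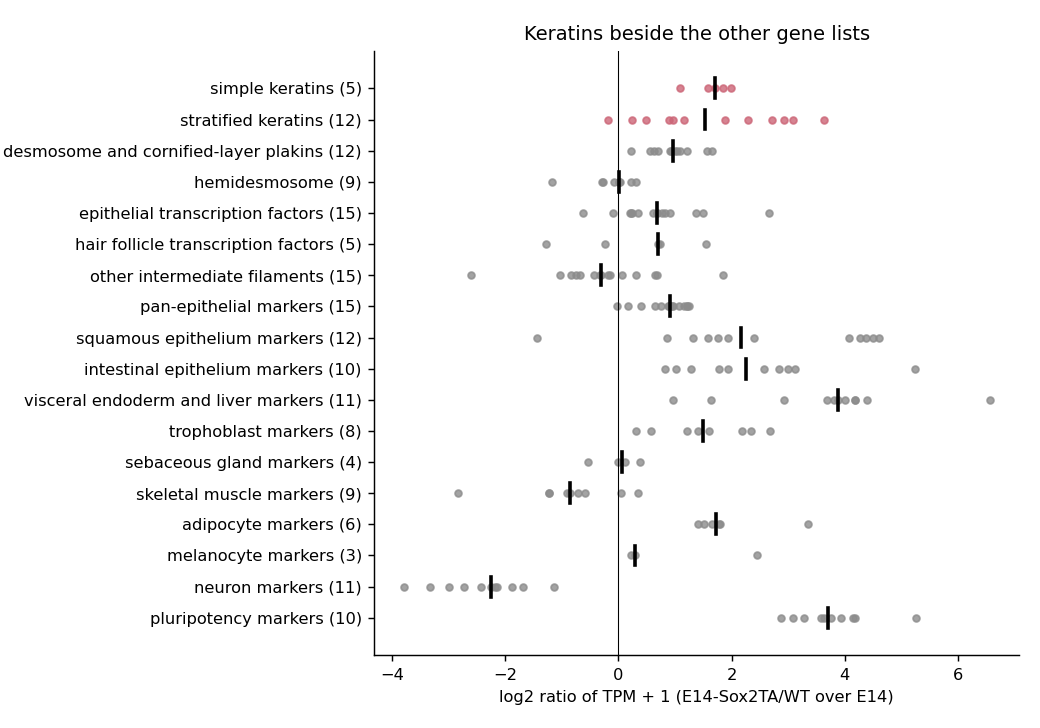
Log2 ratio of TPM + 1 (E14-Sox2TA/WT over E14) for each gene with a TPM of at least 1 in the lists named on the left, with the number of such genes in parentheses, keratins in red and other lists in gray, and a black bar at each median. Simple and stratified keratins have medians of 1.70 and 1.52, above the pan-epithelial markers at 0.91 and below the squamous markers at 2.16, and neuron markers lie at -2.26.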

How the data were processed

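Whole teratomas were profiled by polyA RNA-seq on a NovaSeq instrument. The submitters' processing notes name bcl2fastq 2.20.0, Trimmomatic, HISAT2 2.1.0 and StringTie 2.1.3b, and list the builds mm10 and hg19 without saying what each was used for. Parameters and the use of strand are not given in the sources used here. The authors deposited whole-number read counts for each gene, not normalized. The FPKM and TPM values are also the authors' own, both corrected for transcript length, and TPM has the same sum in each library. The libraries hold 50529171 and 49030281 reads on genes, and counting error is small for abundant keratins and wide below about 50 reads.

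Ratios and calls were computed on all 45777 genes and read off for the 53 keratins. The call followed the study's methods, a fold of TPM above 2 for genes whose TPM reached 10 in either library. With 1 library per group no test was possible. Log2 ratios have 1 added to each TPM, and medians use genes whose TPM reached 1 in either library. A gene that reached it in 1 library alone had to be higher in that library. Ratios of summed TPM, the type I to type II balance, and medians relative to the chromosome were also taken. A count of 0 was taken to allow 3 reads, and a fold against it is a lower bound on reads scaled by library total. Intervals are 95% Clopper-Pearson intervals of the reads, scaled to the TPM ratio. Molecular identifiers were not given, so they cover counting error only.

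Genes named are every keratin with a TPM of at least 10, the most abundant and most different keratin of each class, keratins with 0 reads in both libraries, near-identical pairs (90% of residues), and, for every list, its 3 most abundant genes and the 2 with the largest log2 ratio. Other keratins, and list genes outside this rule, were named after their values were seen. The members and the 16 gene lists, which were assembled by hand, were chosen with earlier results of these data known.

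Positions are from RefSeq for 45679 genes, and promoters from RefSeq for GRCm38.p6. Protein identity used the longest open reading frame of GENCODE transcripts, and shared stretches of 50 nt were counted between GENCODE transcripts of GRCm38. Scripts were tested on simulated data. Alternatives covered the TPM minimum, fold, pseudocount, FPKM, reads scaled to totals, TMM factors from edgeR or size factors, centring on the chromosome, and leaving out near-identical keratins. The software was scipy 1.17.1, pandas 2.3.3, numpy 2.4.6, matplotlib 3.10.9 and Biopython 1.88 in Python 3.11.15, and edgeR 4.0.16 in R 4.3.3 for its factors alone.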

Additional observations from a re-analysis of the deposited data

Results flagged for a closer look

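A pair of keratin-like genes outside the protein-coding set had reads in the mutant library above the wild-type library, which serves as the control, and drew attention for that reason. Krt8-ps, a pseudogene on chromosome 7, had 43 reads in the wild-type (E14) library and 279 in the mutant (E14-Sox2TA/WT) library, with a TPM of 1.05 and 6.15 and a ratio of 5.85 (4.24 to 8.27). Of the 50-nt stretches of Krt8 transcripts, 26.9% also occur in Krt8-ps, and whether its reads came from Krt8 was not tested. Krt74, a keratin of the hair follicle sheath that the table lists as a transcribed pseudogene in the chromosome 15 cluster, had 0 reads in the wild-type library and 8 in the mutant library.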

How the results depend on the processing

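The count of 11 keratins called higher stayed at 11 on FPKM, on reads scaled by library total, TMM or size factors, after division by the chromosome median, with the whole counting interval beyond 2-fold and at a fold above 1.5. It was 9 at a fold above 3, where the TPM had to reach 10 in both libraries, and without near-identical keratins, 19 at a TPM minimum of 1 and 38 with no minimum, where 3 were called lower. With 0.1 added in place of 1, the medians were 2.12 (stratified), 1.54 (hair follicle sheath), 1.79 (other), 2.0 (type I) and 1.89 (type II). With no minimum they were 0.93, 0.13, 0.82, 0.24 and 0.49, since members near 0 enter. At a minimum of 10 they were 2.51 (stratified) and 2.09 (type II), on FPKM 1.68 and 1.75, relative to the chromosome 1.40 and 1.24, and without near-identical keratins 1.06 and 1.22. The sheath median, which is Krt75 alone, was 1.40 with size factors and 0.88 relative to the chromosome. Ratios of sums were 3.64 (simple), 3.65 (stratified) and 3.64 (all) on FPKM, 3.70, 3.8 and 3.74 on reads, and 2.94, 2.62 and 3.07 without the member with the highest TPM in either library (Krt8 or Krt13). Without Krt15 they were 5.52 (stratified) and 3.79 (all). Type I over type II was 1.34 and 0.877 on reads, 2.57 and 1.42 without Krt8 and Krt18, and 1.03 and 0.934 without Krt15, so reads and the removal of Krt15 turned the value of the mutant library. Leaving out Krt15 was chosen after seeing the data. The hemidesmosome median turned to -0.035 at a minimum of 10. Changes on FPKM reflect its fixed factor to TPM in each library and, for medians, the 1 added to smaller values. The causes of other changes not stated here were not tested. Of the 94 alternatives for keratins, 54 differed by less than the counting error or 1.5 times for a count. Hair keratins have no median, as none reached a TPM of 1. No paired analysis was possible because each group has 1 library, and for the same reason no library could be left out. Depth limits the hair and sheath keratins, most of which have under 30 reads, and the spread between tumors is unknown.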

Other observations

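Gene lists for other cell types that a teratoma or its host could hold were read beside the keratins. Among all genes that reached a TPM of 10 in either library, 10.8% were called higher and 18.7% lower. Neuron markers were lower in the mutant library for all 11 genes, each called lower, with a median log2 ratio of -2.26. Tubb3, a neuronal tubulin, had a TPM of 1722 in the wild-type library and 170 in the mutant library, and Mapt, which encodes tau, had 265 and 18.2. Gap43, a protein of growing axons, had 474 and 106, and Stmn2 had 451 and 121. Pluripotency markers were called higher for all 10 genes, with a median of 3.69 and a summed TPM of 85.6 and 1996. Of these 10, only 2 had a TPM of 10 in the wild-type library. Pou5f1, the core factor Oct4, had 19.0 and 304, and Nanog had 8.37 and 116. Dppa5a had 29.1 and 1144, and Dppa4 2.06 and 54.6. Of 10 skeletal muscle markers, 0 were called higher and 3 lower, with a median of -0.85, and Myh8, a perinatal myosin, had 19.6 and 1.90. Mylpf had 185 and 112, Tnnt3 34.3 and 22.4 and Tnni2 34.2 and 14.1.

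Lists for tissues around hair follicles did not differ alike. The shares over all genes stayed 10.8% called higher and 18.7% lower. Of 7 sebaceous gland markers, 0 were called in either direction, Elovl3 and Awat1 had 0 reads in both libraries, and Soat1 had a TPM of 20.4 and 22.4. Awat2 had 1.61 and 2.39, Mc5r 1.78 and 1.77 and Scd3 1.42 and 0.662. None of the 6 melanocyte markers reached a TPM of 10. Mlana had 0 and 87 reads, at least 29.9-fold higher, while Mitf had a TPM of 2.12 and 2.62, Pmel 1.40 and 1.94, and Dct 0 and 6 reads. Adipocyte markers were higher, with more reads in the mutant library for all 8, a median of 1.72 and a summed TPM of 37.3 and 127. Of these 8, 2 were called higher, Lpl at 10.6 and 38.9 and Fabp4 at 26.5 and 71.5, and Cfd had 0 and 227 reads and Adipoq 0 and 83. How much of any of these transcripts came from the host was not tested.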
